A study of Mus musculus with 56 samples.

Results

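The forkhead transcription factor genes are 39 listed mouse Fox genes, of the 49997 genes in the gene table. Foxa genes are not in the set. The H2A.Z peaks of the 39 members were those that the authors' lists of changed peaks name for a member, together with every peak whose centre lay in a member gene or within 1 kb of it. This gave 90 of the 61420 H2A.Z peaks.

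The study profiled chromatin by CUT&Tag, in which an antibody guides a transposase that cuts and tags the DNA around its target. The cells were mouse embryonic stem cells of the line RHKI(E14Tg2a), whose genotype is HA-Rnaseh1 knock-in, and Rnaseh1 encodes a nuclease that removes the RNA strand of RNA:DNA hybrids (R-loops). The H2A.Z_Dox group (4 libraries) received 500 ng/ml doxycycline over 48 hours, and the H2A.Z_control group (4 libraries) did not. H2A.Z replaces the canonical histone H2A in nucleosomes at many promoters and enhancers, and the comparison addresses where its occupancy differs once the nuclease is induced. Both groups carried the knock-in and grew in 2i/LIF medium with 2% FBS, 3 µM CHIR99021 and 1 µM PD0325901. All labels give this 1 line, so an effect of doxycycline itself cannot be told apart from that of the nuclease. The files hold peaks and no expression, so neither the induction nor the cell type was checked here. Of 56 libraries for 10 targets, the other 48 are not analysed here.

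The authors deposited a list of 9077 peaks with lower H2A.Z and a list of 318 with higher H2A.Z. These directions were taken to mean H2A.Z_Dox relative to H2A.Z_control, going by the names of the lists, since their headers do not state the contrast. The other 52025 peaks, which neither list holds, are called unchanged. The lists give positions and annotation without a fold change, a p-value or a value per library. Depth, the size of each change and the spread between replicates are therefore unknown, and no test across libraries could be run. In bulk chromatin, fewer cells with H2A.Z at a peak and less H2A.Z in each cell cannot be told apart.

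Forkhead proteins bind DNA through a winged-helix domain, and many of them specify cell lineages in the embryo. FoxO proteins act downstream of insulin and PI3K, whose kinase AKT phosphorylates them and drives them out of the nucleus, whereas Foxh1 brings Nodal-activated Smad proteins to their targets. Most lineage-specific Fox genes are silent or low in embryonic stem cells, while Foxd3 is a regulator of the pluripotent state.

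The promoters below show the DNA under forkhead peaks near a start site, 4 with lower H2A.Z and 2 with unchanged H2A.Z, so that sequences of both kinds can be read directly. They have the widest peaks among the members with a promoter sequence and a peak centre within 1 kb of the start, and wider peaks at other members are described below. Each is the 250 bases before the RefSeq start on GRCm38.p6, written 5′ to 3′ on the gene's strand with CpG dinucleotides in capitals, and all 250 bases lie inside the H2A.Z peak. The windows are Foxl2 at chr9:98955357-98955606 (plus strand), Foxo3 at chr10:42276696-42276945 (minus), Foxd2 at chr4:114908899-114909148 (minus), Foxo1 at chr3:52268087-52268336 (plus), Foxd3 at chr4:99656049-99656298 (plus) and Foxb2 at chr19:16873831-16874080 (minus). The first 4 were lower and Foxd3 and Foxb2 were unchanged.
Foxl2: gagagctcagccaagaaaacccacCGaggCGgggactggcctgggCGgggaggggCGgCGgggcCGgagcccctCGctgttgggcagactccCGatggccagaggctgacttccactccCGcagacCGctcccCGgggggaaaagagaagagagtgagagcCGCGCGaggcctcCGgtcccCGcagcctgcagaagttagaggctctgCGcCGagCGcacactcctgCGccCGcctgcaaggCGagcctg
Foxo3: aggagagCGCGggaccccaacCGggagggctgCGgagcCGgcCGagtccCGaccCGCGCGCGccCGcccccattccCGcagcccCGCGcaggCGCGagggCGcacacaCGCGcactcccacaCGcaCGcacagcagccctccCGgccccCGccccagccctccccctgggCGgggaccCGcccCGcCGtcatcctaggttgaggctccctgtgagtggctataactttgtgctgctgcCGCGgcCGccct
Foxd2: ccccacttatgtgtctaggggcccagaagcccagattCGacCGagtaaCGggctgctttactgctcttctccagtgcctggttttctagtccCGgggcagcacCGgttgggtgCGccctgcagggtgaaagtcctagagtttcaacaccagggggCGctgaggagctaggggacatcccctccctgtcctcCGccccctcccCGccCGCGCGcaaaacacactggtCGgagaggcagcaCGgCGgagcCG
Foxo1: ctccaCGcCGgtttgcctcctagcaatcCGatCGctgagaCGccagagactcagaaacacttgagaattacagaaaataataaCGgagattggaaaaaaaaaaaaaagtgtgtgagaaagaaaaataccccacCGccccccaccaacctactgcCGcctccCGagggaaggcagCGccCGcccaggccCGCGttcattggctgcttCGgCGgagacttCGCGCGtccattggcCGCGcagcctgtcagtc
Foxd3: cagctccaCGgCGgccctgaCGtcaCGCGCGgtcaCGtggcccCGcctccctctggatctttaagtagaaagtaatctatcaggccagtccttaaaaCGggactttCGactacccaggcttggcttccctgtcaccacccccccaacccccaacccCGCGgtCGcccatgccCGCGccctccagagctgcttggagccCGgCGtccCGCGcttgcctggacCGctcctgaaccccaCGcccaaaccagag
Foxb2: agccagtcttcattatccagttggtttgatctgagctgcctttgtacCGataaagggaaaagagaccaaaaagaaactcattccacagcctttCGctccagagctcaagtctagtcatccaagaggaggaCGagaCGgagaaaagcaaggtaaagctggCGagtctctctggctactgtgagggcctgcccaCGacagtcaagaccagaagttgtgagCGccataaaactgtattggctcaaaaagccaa
The 4 lower windows held 22 CpG in Foxl2, 31 in Foxo3, 16 in Foxd2 and 20 in Foxo1. The unchanged windows held 21 in Foxd3 and 7 in Foxb2. Their GC content was 70.8% in Foxl2, 76.4% in Foxo3, 64.4% in Foxd2 and 56.0% in Foxo1, and 65.6% in Foxd3 and 48.4% in Foxb2. CpG content thus overlapped between lower and unchanged forkhead promoters.

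H2A.Z was lower at many forkhead genes and higher at none. Of the 39 members, 36 had a peak in the gene or within 1 kb, and 22 of these had a lower one (61.1%, 95% exact Clopper-Pearson interval 43.5 to 76.9%). Over all 22149 genes with such a peak the share was 31.1%, and over the 14065 protein-coding ones it was 38.2%. No such forkhead peak was on the list of higher peaks, where 0.542% of all genes had one, and a count of 0 of 36 allows a share of up to 8.33%. The intervals and limits cover counting only, and neighbouring genes can share a locus.

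Counting also the peaks farther away that the lists name for a member, 26 of 37 members had a lower peak (70.3%, 53.0 to 84.1%). This was the planned rule, and the count of 22 of 36 by the window alone was added after seeing the data. By the same rule 38.1% of all genes and 46.0% of protein-coding genes had one. Again none had a higher one, against 1.45% of all genes. The 11 members with unchanged peaks alone were Foxb2, Foxd3, Foxi2, Foxi3, Foxj2, Foxj3, Foxk2, Foxm1, Foxn3, Foxo4 and Foxp1. No peak was found at Foxn2 or Foxp3. A gene end here means a peak centre within 1 kb of the start or the end of the gene. There 17 of 30 members were lower (56.7%), against 27.1% of all genes and 31.5% of protein-coding genes. At these ends 0 members were higher, against 0.103% of all genes.

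By peaks, 24 of the 70 in or near the genes were lower (34.3%, 23.3 to 46.6%), against 14.8% of the whole peak set and 19.3% of the peaks in or near any gene. Of these 70, 21 lay in Foxp1, all of them unchanged, and without Foxp1 24 of 49 were lower (49.0%). With the peaks that only the lists name, 44 of 90 were lower (48.9%). That last share is raised by its construction, because unchanged peaks at a distance are named for no gene. None of the 90 was higher, against 0.518% of the whole set.

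**Figure D1:**
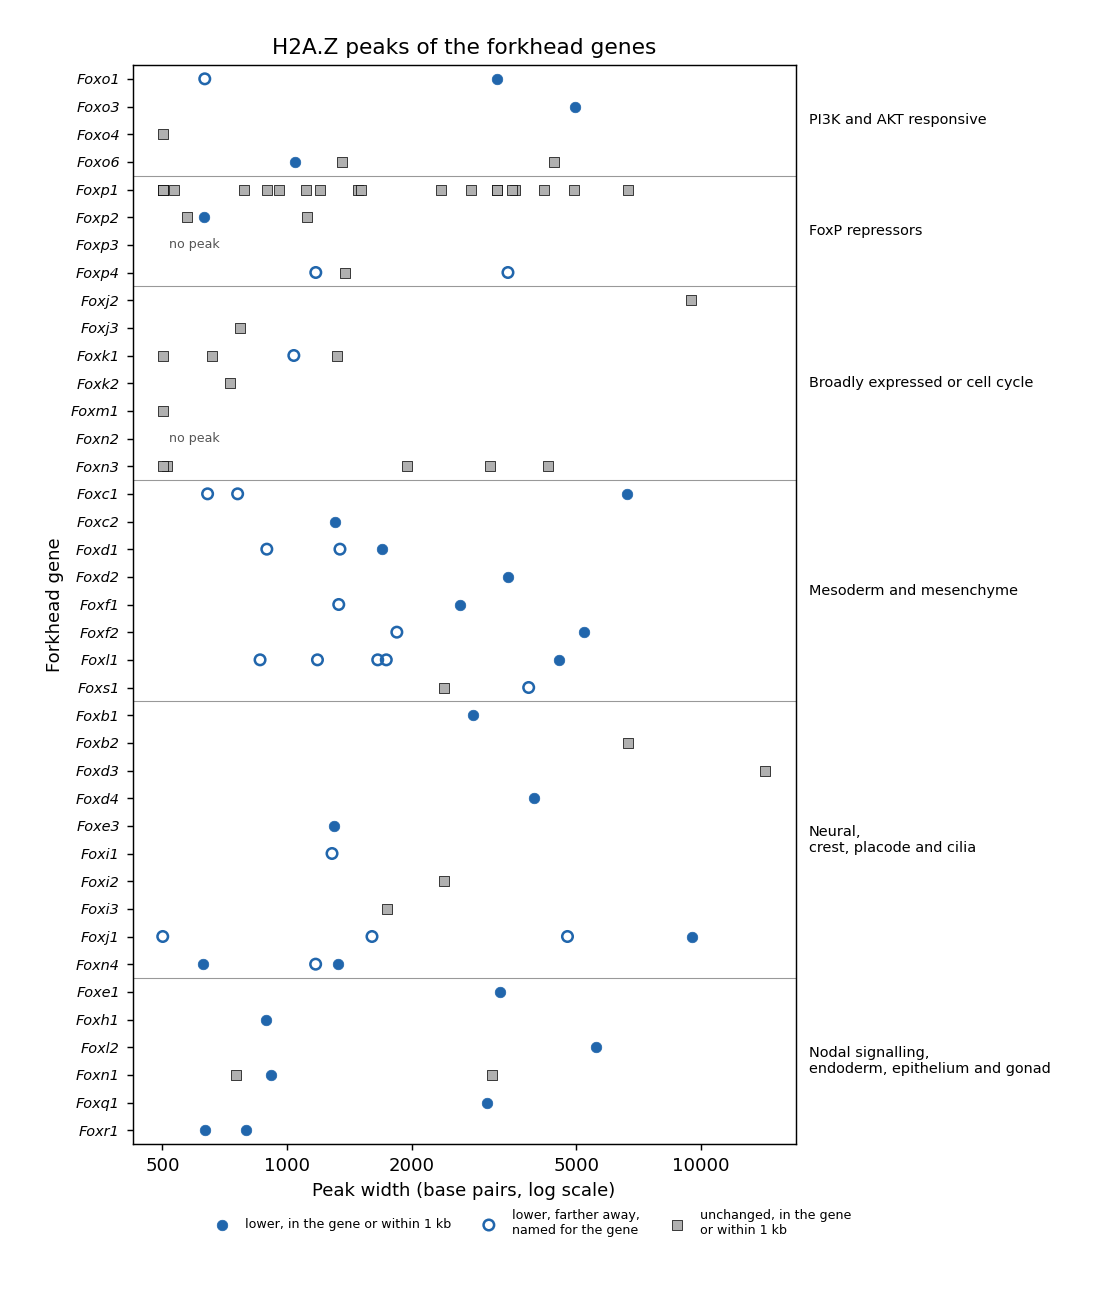
Width in base pairs (log scale) of each of the 90 H2A.Z peaks, by forkhead gene and role. Filled circles are lower peaks in the gene or within 1 kb, open circles lower peaks farther away, and squares unchanged peaks. Foxj1 has the widest lower peak (9536 base pairs) and Foxd3 the widest unchanged one (14331 base pairs).

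The plot of peak widths shows how the calls fell by gene: most genes of lineage regulators carry a single filled circle, whereas the squares gather at Foxp1, Foxn3 and the broadly expressed members. The members are described below by role, and each distance is from the centre of a peak to the start site in the authors' annotation. The counts for each role stand beside the same background as above, 31.1% of all genes and 38.2% of protein-coding genes with a peak, and differences between roles were not tested.

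Of the 4 FoxO genes, which respond to PI3K and AKT, 3 were lower. Foxo3, which restrains the cell cycle and supports stem cell maintenance, had a lower peak of 4970 base pairs at chr10:42273766-42278735, centred 492 base pairs past its start in the first intron. Foxo1, a regulator of metabolism that also acts in pluripotent cells, had one of 3218 base pairs at chr3:52267371-52270588 over its first exon, and a second of 633 base pairs lay 72332 base pairs upstream. Both genes are long, yet the lower peak at the gene lay at the promoter printed above. Foxo6, known from the brain, had a lower promoter peak of 1048 base pairs at chr4:120286675-120287722 and 2 unchanged peaks of 4410 and 1355 base pairs within the gene. Foxo4, on the X chromosome, had 1 unchanged peak of 501 base pairs, the narrowest width that occurs.

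The FoxP genes, which encode repressors that pair through a leucine zipper, had 25 peaks in or near 3 of the 4 genes, and 1 of them was lower. Foxp1 is spliced into a form found in embryonic stem cells, and its 21 unchanged peaks were 501 to 6658 base pairs wide. One of these, 3489 base pairs wide, lay over its start. Foxp2, known for its part in vocal learning circuits, had a lower peak of 629 base pairs at chr6:14929051-14929679 in the first intron. The authors' annotation places that peak in an L1Md_A element, a young LINE repeat, and the other 2 peaks of Foxp2, of 575 and 1120 base pairs, were unchanged. Foxp4, an airway and gut regulator, had an unchanged peak of 1382 base pairs at its start, and lower peaks of 1174 and 3420 base pairs lay 22548 and 50463 base pairs upstream. Foxp3, the regulator of regulatory T cells, had no peak.

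The 7 broadly expressed or cell cycle members had 12 peaks at 6 genes, all unchanged. Foxj2 had the widest of these, 9478 base pairs, and it lay over the start. Foxm1, which drives genes of mitosis, had a peak of 501 base pairs. Foxj3 and Foxk2 had peaks of 771 and 729 base pairs. Foxn3, a repressor linked to the cell cycle checkpoint, had 5 peaks of 501 to 4272 base pairs. Foxk1, which acts with Foxk2 on metabolism and autophagy genes, had 3 unchanged peaks of 501 to 1319 base pairs. A lower peak of 1039 base pairs, in a CpG island 34116 base pairs upstream, was also named for Foxk1. Foxn2 had no peak, so 0 of the 6 genes with a peak were lower, and with so few genes a count of 0 allows a share of up to 50%.

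**Figure D2:**
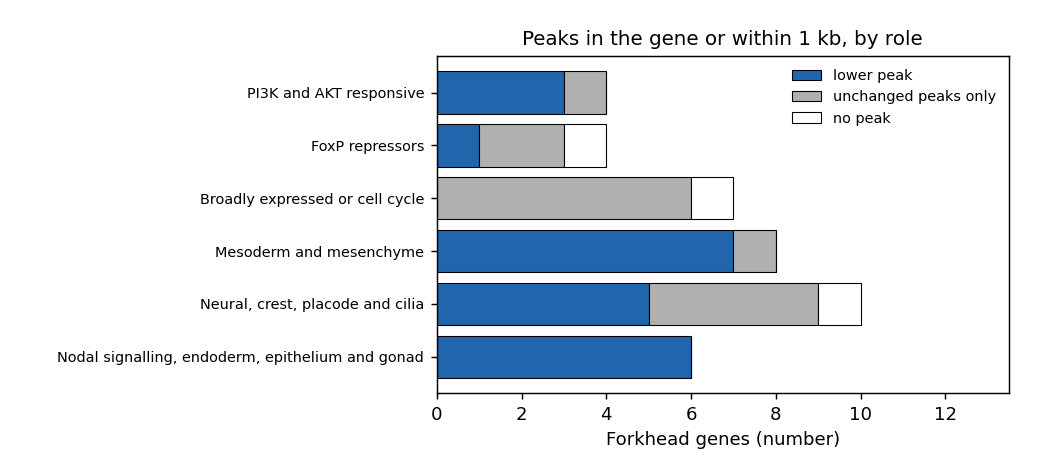
Number of forkhead genes in each role with a lower peak, with unchanged peaks only and with no peak in the gene or within 1 kb. Of the genes with a peak, a lower one was present at 7 of 8 in mesoderm and mesenchyme and at 0 of 6 in the broadly expressed or cell cycle role, against 38.2% of protein-coding genes, and the difference between roles was not tested.

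Among the 8 mesoderm and mesenchyme genes, 7 had a lower peak in or near the gene. Foxc1, which shapes the eye and mesenchyme, had the widest, 6642 base pairs at chr13:31805657-31812298, which covered the whole gene. Its close relative Foxc2, a regulator of lymphatic vessels, had one of 1303 base pairs at chr8:121116360-121117662. Foxf2, which acts in the palate and in brain pericytes, had one of 5214 base pairs at chr13:31625148-31630361. Foxf1, needed in the lateral mesoderm and the lung vessels, had one of 2613 base pairs at chr8:121082529-121085141, at the promoter of the noncoding RNA Fendrr. The genes of this group were 1.31 to 5.59 kb long.

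Foxl1, a marker of gut mesenchyme, had a lower peak of 4553 base pairs at chr8:121124952-121129504, centred 457 base pairs before its start. Foxd2, expressed in paraxial mesoderm and kidney, had one of 3419 base pairs at chr4:114907085-114910503, at the promoter it shares with the noncoding RNA Foxd2os. Foxd1, a marker of kidney stroma, had one of 1693 base pairs at chr13:98353711-98355403. Foxs1, found in perivascular cells, was the exception: its peak of 2398 base pairs, over the whole gene, was unchanged, while a peak of 3838 base pairs centred 7875 base pairs away was lower.

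The 10 genes of neural, crest, placode and ciliated cells divided, with a lower peak at 5 of the 9 that had one. Foxj1, the regulator of motile cilia, had the widest lower forkhead peak, 9536 base pairs at chr11:116326486-116336021, which covered the whole gene and ranked 209 by width among all 61420 peaks. The peak of Foxj2, nearly as wide at 9478 base pairs with rank 215, was unchanged. Foxd4, which acts in early neural precursors, had a lower peak of 3949 base pairs at chr19:24897285-24901233. Foxb1, a gene of the mammillary bodies, had one of 2812 base pairs at chr9:69758620-69761431. Foxn4, which acts in retinal and spinal interneurons, had lower peaks of 1330 base pairs at its start (chr5:114273540-114274869) and 626 base pairs in the second intron. Foxe3, a lens regulator, had one of 1296 base pairs at chr4:114924698-114925993.

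Foxd3, which acts in both pluripotent cells and neural crest, had the widest forkhead peak of all, 14331 base pairs at chr4:99649890-99664220 with rank 23 in the whole set, and it was unchanged. The peak of Foxb2, another neural gene, was also unchanged at 6659 base pairs (chr19:16870460-16877118), close in width to the lower peak of Foxc1. Foxi2 and Foxi3, the second of them a regulator of ear placodes, had unchanged peaks of 2397 and 1741 base pairs. Foxi1, a regulator of ionocytes, had no peak in or near the gene, and a lower one of 1285 base pairs lay 15247 base pairs upstream. Width alone therefore did not separate lower from unchanged forkhead peaks.

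All 6 genes of Nodal signalling, endoderm, epithelium and gonad had a lower peak, against 38.2% of protein-coding genes with a peak. Foxl2, which maintains granulosa cells of the ovary, had the widest, 5570 base pairs at chr9:98951943-98957512. The authors' list names this peak for the antisense gene Foxl2os, whose promoter adjoins that of Foxl2. Foxe1, needed for the thyroid, had one of 3266 base pairs at chr4:46342534-46345799, which covered the whole gene. Foxq1, which acts in hair and stomach epithelium, had one of 3051 base pairs at chr13:31557271-31560321. Foxh1, the Smad partner in Nodal signalling, had one of 890 base pairs at chr15:76669170-76670059 over its first exon. Foxr1 had lower peaks of 633 base pairs at its start (chr9:44440681-44441313) and 798 base pairs in the third intron. Foxn1, the regulator of thymus epithelium, had a lower peak of 915 base pairs in the third intron, while its other peaks of 3138 and 754 base pairs were unchanged.

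Of the 24 lower peaks in or near the genes, 17 lay over a start site, by the authors' distance or, for Foxl2, by the RefSeq start. The peak of Foxd4 is not among the 17 by the authors' distance, although it covers the RefSeq start. Of the 24, 11 covered at least 60% of the gene, and 4 covered the whole gene as the gene table gives it (Foxc1, Foxd4, Foxe1 and Foxj1). The same counts over all lower peaks are not given here, so these are no trait of forkhead peaks. Of the 43 lower peaks named for a member, near or far, 34.9% were centred within 1 kb of a start, against 38.3% of all lower peaks. Many forkhead genes are short: the median length was 3.78 kb in the 22 members with a lower peak and 19.0 kb in the 14 with unchanged peaks only. In length classes chosen after the data were seen, 16 of 22 members of up to 7 kb were lower (72.7%, 49.8 to 89.3%), against 42.8% of protein-coding genes of that length. Between 7 and 30 kb, 3 of 5 members were lower, against 37.1%. Above 30 kb, 3 of 9 were lower (33.3%, 7.49 to 70.1%), against 37.5%. Role and length move together here, since the median length was 2.84 kb in the mesoderm group and 49.9 kb in the broadly expressed group, and their parts in the result cannot be told apart.

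Lower peaks in or near forkhead genes had a median width of 2712.5 base pairs (626 to 9536, 24 peaks), against 1034 base pairs for all lower peaks. The unchanged forkhead peaks had a median of 1368.5 base pairs (501 to 14331, 46 peaks), against 967 base pairs for all unchanged peaks. In width classes also chosen after the data were seen, 13 of 31 forkhead peaks of 2 kb or more were lower (41.9%), against 12.6% of all peaks of that width. Of the narrower forkhead peaks, 11 of 39 were lower (28.2%), against 15.3%. These forkhead peaks all lie in or near a gene, whereas the comparison peaks in this paragraph lie anywhere in the genome. Among peaks of all widths, 19.3% of those in or near any gene were lower, against 14.8% of the whole set.

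Several members stand side by side in the genome. The counts here include the lower member peaks already described. For comparison, 14.8% of the whole peak set and 19.3% of peaks in or near any gene were lower. On chromosome 8, Foxf1, Foxc2 and Foxl1 span 46.3 kb, and within 10 kb of that span 4 of 5 peaks were lower. On chromosome 4, Foxd2 and Foxe3 span 19.8 kb, with 2 of 4 peaks lower. On chromosome 13, Foxq1, Foxf2 and Foxc1 span 252 kb, with 6 of 15 peaks lower (40.0%). There each of the 3 genes had 1 lower peak over it. The other 3 lower peaks and all 9 unchanged ones lay outside the genes, among them an unchanged peak of 4708 base pairs shortly before Foxc1 and a lower one of 760 base pairs named for Foxc1 at 89668 base pairs upstream.

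**Figure D3:**
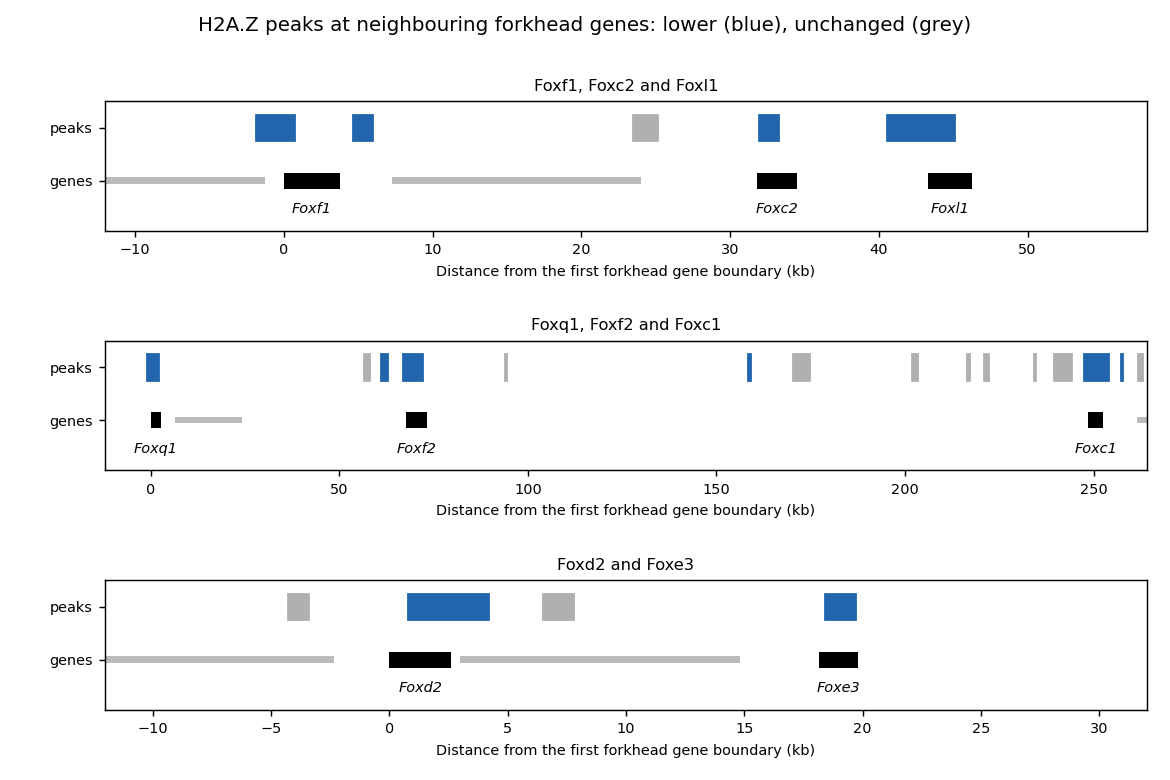
Peaks (upper track, lower in blue and unchanged in grey) and genes (lower track, forkhead genes in black and others in thin grey) at 3 groups of neighbouring forkhead genes, by distance in kb. Each of the 8 forkhead genes shown has a lower peak over it or at its promoter.

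The map of the 3 neighbourhoods also shows that the forkhead genes within each share a locus, so these 8 members are not independent of one another. It shows unchanged peaks within the same neighbourhoods, 1 on chromosome 8, 2 on chromosome 4 and 9 on chromosome 13.

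A further 20 lower peaks lay outside the genes and were named for 12 members, at 4399 to 173824 base pairs from the start (median 23332.5). Of these, 16 were intergenic and 3 lay in a CpG island. Foxl1 had 4 of them, 92746 to 173824 base pairs downstream. Foxj1 had 3, of 4763, 501 and 1605 base pairs, all inside its neighbour Rnf157. With the lower peak at Foxj1 itself, these were all 4 peaks from Foxj1 to 30 kb upstream. Over the whole peak set 14.8% were lower, but this window was not set before these peaks were known. Foxd1 had lower peaks of 894 and 1343 base pairs at 4399 and 12187 base pairs downstream, and Foxf1 and Foxf2 had one each at 5326 base pairs downstream and 5682 base pairs upstream. The remaining one at Foxn4 lay in an exon of the neighbouring gene Acacb. A peak can thus be named for one gene while it lies inside another, and whether a distant peak acts on the gene named was not tested.

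The lists name 25 members for 43 lower peaks. Of these 25 members, 5 were named by 3 or more lower peaks (20.0%), against 7.09% of the 6690 genes named by any lower peak. They were Foxl1 with 5, Foxj1 with 4, and Foxc1, Foxd1 and Foxn4 with 3 each. By the authors' annotation, 36.4% of the 44 lower forkhead peaks were intergenic, 18.2% intronic, 15.9% exonic and 15.9% at a promoter. Over all lower peaks these shares were 29.4% intergenic, 27.8% intronic, 15.9% exonic and 18.9% at a promoter. Within 1 kb of the start lay 15 of the 43 (34.9%), against 38.3% of all lower peaks.

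Promoter windows of 300 bases, 250 before the RefSeq start and 50 after, were given for 24 members. A peak centre lay within 1 kb of the start in 16 of them, and it was lower in 8 (50%, 24.7 to 75.3%), against 28.7% of all genes with a peak there, and higher in 0, against 0.0733%. The lower ones were Foxd1, Foxd2, Foxe3, Foxl2, Foxn4, Foxo1, Foxo3 and Foxr1. The unchanged ones were Foxb2, Foxd3, Foxi2, Foxi3, Foxj3, Foxk2, Foxp1 and Foxp4. This rule leaves out wide peaks centred farther into the gene, such as those of Foxc1 and Foxj2.

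Both sets were GC-rich and overlapped. The median GC content was 64.2% in lower promoters (57.7 to 75.0%) and 67.3% in unchanged ones (51.7 to 79.3%), against 56.3% over protein-coding promoters. The median ratio of observed to expected CpG was 0.698 in lower promoters (0.345 to 1.10) and 0.832 in unchanged ones (0.198 to 1.28), against 0.577 over protein-coding promoters. GC skew, the excess of G over C on the gene's strand as a share of both and a feature linked to R-loops, had a median of -0.0421 in lower promoters (-0.191 to 0.164). In unchanged promoters its median was -0.0980 (-0.232 to 0.0756), against 0.0068 over all promoters. The windows lie mostly before the start, so skew in the transcribed part was barely covered, and a tie to R-loops was not tested. The core forkhead motifs TGTTTAC and TGTTTGC were searched on both strands. TGTTTAC was in 0 of the 24 windows and in 3.52% of all promoters, and TGTTTGC was in 2, those of Foxj3 and Foxp1, and in 5.04% of all promoters. Either motif was thus in 2 of 24 forkhead promoters (8.33%), against 8.31% of all promoters and 7.33% of protein-coding ones. Both matches were in unchanged promoters (2 of 8), with 0 of 8 in lower ones, and these counts are too small to compare. A match is only a description of the letters.

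**Figure D4:**
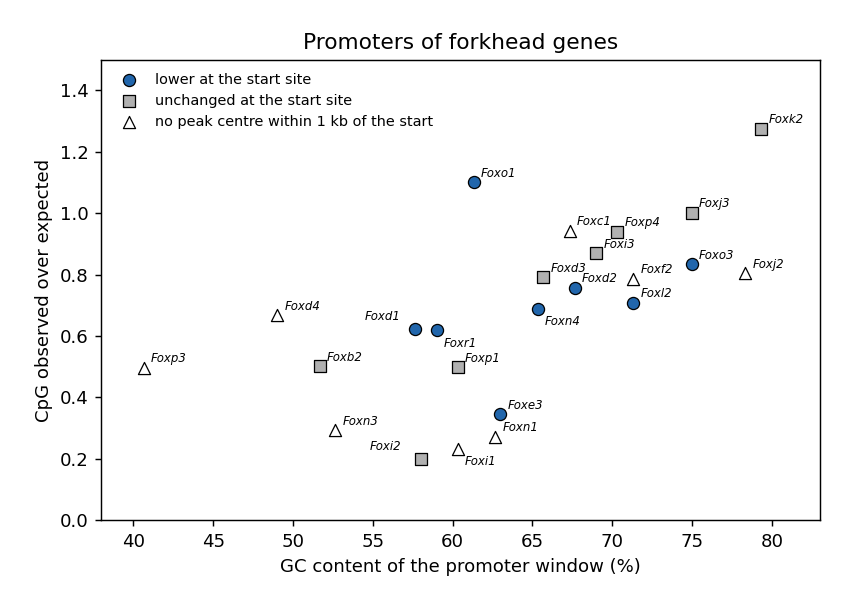
GC content (%) against the ratio of observed to expected CpG in the 300-base promoter windows of 24 forkhead genes. Circles are lower at the start site, squares unchanged, and triangles have no peak centre within 1 kb of the start. The ranges overlap, with circles from 57.7 to 75.0% GC and squares from 51.7 to 79.3%, and Foxk2, unchanged, is the highest on both axes.

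Genes that act with forkhead proteins were read by the same window. Of 14 insulin, PI3K and AKT genes with a peak, 6 were lower (42.9%, 17.7 to 71.1%), against 38.2% of protein-coding genes. The widest lower peaks were 6334 base pairs at Irs1, which couples the insulin receptor to PI3K, 3538 at Pik3r2, a PI3K subunit, 3254 at Igf1r and 2239 at Irs2. The authors' list names the peak counted at Pik3r2 for another gene, Ifi30, and the one at Irs2 for 9530052E02Rik. Among FoxO targets, 2 of 9 were lower (22.2%), with peaks of 2401 base pairs at Fbxo32, a ubiquitin ligase of muscle wasting, and 954 at Sesn1, a stress-response gene. The lists also name 4 distant lower peaks for Gadd45b, the widest of 4542 base pairs, and 1 for Ccng2. Of Nodal and Foxh1 genes, 4 of 13 were lower (30.8%). They were Gsc, a gene of the organizer, with a peak of 4398 base pairs, Smad3 with 2839, Mixl1 with 1847 and the receptor gene Acvr1b with 501. Of Foxm1 targets, 2 of 7 were lower (28.6%), Cdc25b with 1848 base pairs and Ccnb2 with 501. No gene of these 4 lists had a higher peak, against 0.542% of all genes with a peak, and with so few genes this says little. The interval of the share of lower genes contained 38.2% in each list, for example 9.09 to 61.4% for Nodal and Foxh1 genes and 3.67 to 71.0% for Foxm1 targets.

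Of 4 noncoding RNAs beside forkhead genes, Foxo6os had no peak in or near it. Foxl2os, Fendrr and Foxd2os had a lower peak, against 31.1% of all genes with a peak. These were the peaks of Foxl2, Foxf1 and Foxd2, in that order, so they are not separate observations. CUT&Tag reads carry no strand of transcription, so the RNA and the Fox gene cannot be told apart there.

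Set beside other families of developmental transcription factors, the forkhead share of 22 of 36 genes (61.1%) lay between those of the others. Hox genes were lower at 18 of 32 (56.3%, 37.7 to 73.6%), Tbx genes at 4 of 9 (44.4%, 13.7 to 78.8%) and Sox genes at 13 of 16 (81.3%, 54.4 to 96.0%). The forkhead interval overlapped all of these, and none of the 4 families had a higher peak in or near a gene. The differences between families were not tested.

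**Figure D5:**
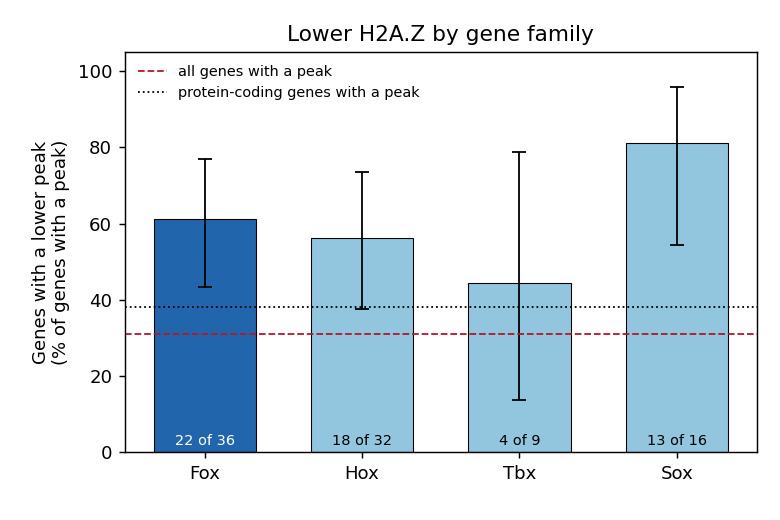
Share of genes with a lower H2A.Z peak in the gene or within 1 kb, as a percent of the family's genes with a peak. Bars give the share, error bars the 95% exact Clopper-Pearson interval, and lines the share over all genes (31.1%, dashed) and protein-coding genes (38.2%, dotted); the Fox interval overlaps those of Hox, Tbx and Sox.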

How the data were processed

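CUT&Tag peaks of H2A.Z in mouse embryonic stem cells were analysed. The submitters' processing notes name GRCm38 and, with no roles or versions, deepTools, HOMER, Picard, Bowtie2 and Trimmomatic. Not given in the sources used here are the peak caller, any pooling of replicates, the test behind the lists and its threshold. Both lists, per the file headers, were annotated with HOMER annotatePeaks on mm10. The peak score that the authors deposited is 0 throughout and was not used. Other columns the authors deposited are positions, annotation and distances to the TSS, and positions are printed counting from 1.

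All 39 members matched the RefSeq gene table (GRCm38.p6) by symbol, and 9042 of 9077 lower peaks matched a gene by Entrez ID. A peak was given to a gene if its centre lay in the gene or within 1 kb, or if a list named the gene. The shares by role, length class, family and partner list used the window of 1 kb alone. Sequences came from RefSeq promoters of GRCm38.p6. Shares have 95% exact Clopper-Pearson intervals, and 0 counts were taken to allow up to 3. The edgeR test of H2A.Z per library that had been planned was not run, because the files hold no value per library.

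The members and lists were chosen with earlier results of these data known. Every member is named. Peaks are given in full for the widest lower peak of a role and lower peaks within 1 kb of a TSS, partner genes by up to 4 lower peaks per list by width, and up to 6 promoters by peak width. Other peaks were chosen after their values were seen. The assignment of peaks to genes was tested on simulated data. Software was matplotlib 3.10.9, SciPy 1.17.1, pandas 2.3.3, numpy 2.4.6 and Python 3.11.15. Alternatives covered the window, the overlap rule, the nearest gene end, peaks of minimum width and the background genes.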

Additional observations from a re-analysis of the deposited data

How the results depend on the processing

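The count of 26 forkhead genes with a lower peak (of 37, background 38.1%) ranged from 20 to 27 and stayed within 1.5 times under all 8 alternatives. It was 20 (of 34, background 26.4%) where the nearest gene end alone took each peak. With an extension of 5 kb it was 27 (of 38, background 36.2%). Against protein-coding genes the count stayed 26 and the background was 46.0%. The count with a higher peak was 0 under all alternatives run, with backgrounds of 0.542 to 1.55%. At a gene end, 17 genes were lower, and this count moved by more than 1.5 times in 2 alternatives. It was 8 (of 14, background 26.2%) with a window of 500 base pairs. With the start site alone, which could be read only for members in the promoter table, it was 8 (of 16, background 28.7%). The share of lower peaks was 48.9% (38.2 to 59.7%). With the nearest gene end it was 34.7%, and without the peaks that only the lists name it was 34.3%, both below that interval. Leaving those peaks out was an alternative added after seeing the data, and it gave 22 genes with a lower peak (of 36, background 31.1%). The classes of gene length and peak width were also added after seeing the data. No paired analysis was possible because the files hold no value per library. For the same reason the fits without each replicate and with another normalization or filter were not run, and depth and replicate error are unknown.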
